A study of Mus musculus with 18 samples.

Results

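Clca3a1, Kcnj5, Bmp2, Arhgef37 and Snhg11 are 5 of the 41079 genes counted in cKit+ bone marrow cells of the mouse. They were chosen by the measured difference between C16-treated and DMSO-treated cells, which was far apart in AE9a and wild-type (WT) cells. The C16 and DMSO libraries therefore chose them, and what those libraries show of these genes is given below as a description, without a test. RNA was sequenced from 2 genotypes, AE9a and WT, each given DMSO, C16 or RE, with 3 libraries in each of the 6 groups. DMSO, the solvent, is the control treatment within each genotype. The study addresses blocking of WDR5 and of MLL1; which protein C16 acts on, which RE, and at what dose and time is not in the labels. Nor do they say how AE9a was introduced, the age or sex of the mice, or whether replicates came from separate animals, so a p-value may measure only the spread between these libraries. Each genotype came as a count table of its own, and a difference between genotypes cannot be told apart from one of batch or preparation.

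AE9a is a shortened splice form of the leukaemia fusion AML1-ETO, which joins the DNA-binding part of RUNX1 to RUNX1T1 (ETO). WDR5 is a scaffold of the MLL methyltransferase complexes, which methylate lysine 4 of histone H3. The 5 genes share no pathway. Clca3a1 encodes a secreted protein of the CLCA family, named for its link to calcium-activated chloride conductance. Kcnj5 encodes a subunit (Kir3.4, or GIRK4) of G protein-gated inward rectifier potassium channels. Such channels pass potassium into the cell more readily than out of it and are best known from heart atrium. Bmp2 encodes a secreted ligand of the TGF-beta superfamily, which binds paired type I and type II receptors, leads to phosphorylation of SMAD1, SMAD5 and SMAD9 and induces target genes such as the Id genes. Arhgef37 encodes a predicted guanine nucleotide exchange factor, a kind of protein that loads small GTPases with GTP. Snhg11 is transcribed into a long non-coding RNA that hosts small nucleolar RNAs in its introns.

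The libraries held 16053727 to 27207748 fragments, and levels are given as CPM, the counts of a gene per 1000000 fragments of the library. A library at 0 fragments is held to a limit of 3 fragments, which covers counting error only. Runx1t1, which the fusion contains, averaged 40.0 ± 6.26 CPM (mean ± SD, n = 3) under DMSO, 2.21 ± 1.93 CPM under C16 and 40.2 ± 4.87 CPM under RE in AE9a cells, and no WT library exceeded 0.402 CPM. The AE9a C16 replicates 1 to 3 stood at 2.35, 4.06 and 0.205 CPM, the last from 4 fragments. Runx1t1 therefore does not set AE9a C16 replicate 3 apart from the WT libraries. Kit, the gene of the surface receptor used to select the cells, averaged 1031 ± 162.3, 265.5 ± 48.6 and 1474 ± 124.1 CPM in AE9a cells under DMSO, C16 and RE and 107.8 ± 40.8, 116.7 ± 7.17 and 165.6 ± 73.8 CPM in WT cells, so it was present in every group, with its lowest library at 60.8 CPM. WT replicate 2 stood apart under every treatment: the library nearest to each WT replicate 2 library, by root mean square log2 difference over 11899 genes, was another WT replicate 2 library and none of its own group. WT C16 replicate 2 lay 0.516 from WT DMSO replicate 2 and almost as near to AE9a C16 replicates 1 to 3 (0.525, 0.545 and 0.528). From WT C16 replicates 1 and 3 it lay 0.961 and 1.014 away. The cause was not tested. AE9a C16 replicate 3 lay 0.482 from its nearest library, while the other pair of its group lay 0.170 apart. Results that rest on these libraries are given with and without them.

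Of the 5 genes, Bmp2 and Arhgef37 are left without a promoter sequence here. RefSeq promoter sequences, matched by symbol, are given for the other 3. They run from 250 bases before to 50 after the start of the transcript (GRCm38.p6, a different build from the GRCm39 of the counts). They are shown because Clca3a1 and Kcnj5 were higher under C16 than under DMSO in WT replicates 1 and 3, where Snhg11 was lower, and because the fusion carries the DNA-binding part of RUNX1. Capitals mark matches to 2 RUNX words, TGTGGT and TGCGGT, and to 2 GATA words, AGATAA and TGATAA, searched on both strands; no 2 of these words share letters here. GATA factors act in megakaryocyte, erythroid and mast cell genes. The lines run 5′ to 3′ on the strand of the gene, from chr3:144760928-144761227 (minus strand) for Clca3a1, chr9:32344295-32344594 (minus strand) for Kcnj5 and chr2:158375463-158375762 (plus strand) for Snhg11.
Clca3a1: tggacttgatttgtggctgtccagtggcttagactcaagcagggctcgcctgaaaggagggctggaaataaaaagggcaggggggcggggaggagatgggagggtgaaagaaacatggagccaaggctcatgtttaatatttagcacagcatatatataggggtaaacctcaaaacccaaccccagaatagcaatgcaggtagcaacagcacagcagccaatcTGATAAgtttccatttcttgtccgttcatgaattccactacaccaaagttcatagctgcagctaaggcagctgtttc
Kcnj5: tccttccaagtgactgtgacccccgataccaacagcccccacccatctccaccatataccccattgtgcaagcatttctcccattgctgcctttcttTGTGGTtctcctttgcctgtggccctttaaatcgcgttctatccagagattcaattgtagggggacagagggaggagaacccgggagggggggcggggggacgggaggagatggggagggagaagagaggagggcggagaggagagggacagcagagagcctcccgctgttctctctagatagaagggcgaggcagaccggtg
Snhg11: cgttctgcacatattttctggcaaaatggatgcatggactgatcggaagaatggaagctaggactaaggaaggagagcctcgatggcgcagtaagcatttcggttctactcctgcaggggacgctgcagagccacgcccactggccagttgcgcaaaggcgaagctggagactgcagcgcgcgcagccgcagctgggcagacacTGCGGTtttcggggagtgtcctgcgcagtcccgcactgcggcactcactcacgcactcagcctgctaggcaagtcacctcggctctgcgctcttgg
The Clca3a1 window held TGATAA 27 bases before the start and neither RUNX word. The Kcnj5 window held TGTGGT 153 bases before the start, the Snhg11 window held TGCGGT 46 bases before it, and neither held a GATA word. Of 32851 promoter windows of the same length, 22.4% held a RUNX word and 18.6% a GATA word, so matches of this kind are common. The GC content was 48.0% for Clca3a1, 58.3% for Kcnj5 and 60% for Snhg11, against a median of 52.7% over all windows.

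Clca3a1 lies on chromosome 3 from 144435438 to 144466738 on the minus strand (GRCm39, as all gene positions below), with 16 exon blocks that add up to 5332 bases. In AE9a cells it stood at 61.8, 68.5 and 48.5 CPM under DMSO, at 1.55, 1.93 and 0.154 CPM under C16 and at 32.2, 33.1 and 24.7 CPM under RE, each in the order of replicates 1 to 3. In WT cells it stood at 7.27, 0.394 and 8.03 CPM under DMSO, at 98.8, 0.439 and 103.7 CPM under C16 and at 9.36, 0.685 and 10.4 CPM under RE. The C16 libraries were thus the lowest of the AE9a cells and, in replicates 1 and 3, the highest of the WT cells, while WT replicate 2 was under 1 CPM throughout. By group means the DMSO level in AE9a cells was 49.2 times the C16 level, and in WT cells the C16 level was 12.9 times the DMSO level, or 13.2 times without replicate 2. The order of the group means was WT C16, AE9a DMSO, AE9a RE, WT RE, WT DMSO and AE9a C16. The first place of WT C16 rests on replicates 1 and 3, and WT RE and WT DMSO, at 6.80 ± 5.32 and 5.23 ± 4.21 CPM, did not differ beyond their spread. In reference transcripts, 26.8% of the 50-base windows of Clca3a1 also occur in another gene, mostly in its neighbour Clca3a2. That gene held 15 fragments over all 18 libraries, and Gm34866, whose exons overlap Clca3a1 on the other strand, held 16, so few fragments were assigned to either; how fragments that fit more than 1 gene were treated beyond keeping primary alignments is not given in the sources used here.

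Kcnj5 lies on chromosome 9 from 32226002 to 32255640 on the minus strand, with 6 exon blocks of 4907 bases. Its levels in AE9a cells were 24.3, 26.4 and 26.1 CPM under DMSO, 0.350, 0.355 and 0.205 CPM under C16 (7, 9 and 4 fragments) and 12.5, 11.03 and 14.2 CPM under RE. Its levels in WT cells were 36.1, 0.112 and 28.9 CPM under DMSO, 105.4, 0.341 and 127.6 CPM under C16 and 31.0, 0.561 and 36.2 CPM under RE. All 3 AE9a C16 libraries were close to absence of the transcript, and the AE9a RE libraries lay between them and DMSO without overlap. Unlike Clca3a1, Kcnj5 had a DMSO level that was much alike in AE9a cells (25.6 ± 1.12 CPM) and in WT cells without replicate 2 (32.5 ± 5.07 CPM, n = 2). By group means AE9a DMSO was 84.3 times AE9a C16, and WT C16 was 3.58 times WT DMSO, or 3.59 times without replicate 2. The order of the means was WT C16, AE9a DMSO, WT RE, WT DMSO, AE9a RE and AE9a C16. With WT replicate 2 counted, neighbouring groups in that order overlapped, except AE9a RE and AE9a C16. None of the 50-base windows of Kcnj5 occurred in another gene.

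Bmp2 lies on chromosome 2 from 133394079 to 133404816 on the plus strand, with 3 exon blocks of 3566 bases. In AE9a cells its levels were 11.2, 14 and 9.88 CPM under DMSO, 0.400, 0.750 and 0 CPM under C16 and 9.83, 11.7 and 11.6 CPM under RE. In WT cells they were 1.39, 0 and 0.792 CPM under DMSO, 12.2, 0 and 12.97 CPM under C16 and 3.16, 0 and 1.498 CPM under RE. Bmp2 was the gene of the 5 whose AE9a RE libraries overlapped the DMSO ones, and it was at 0 fragments in all 3 WT replicate 2 libraries. Those zeros allow up to 0.169, 0.146 and 0.187 CPM under DMSO, C16 and RE, and that of AE9a C16 replicate 3 up to 0.154 CPM. By group means AE9a DMSO was 30.6 times AE9a C16, and WT C16 was 11.5 times WT DMSO, with and without replicate 2. AE9a DMSO and AE9a RE, first and second in the order at 11.7 ± 2.102 and 11.04 ± 1.05 CPM, did not differ beyond their spread, and WT C16 without replicate 2 (12.6 ± 0.568 CPM, n = 2) lay within the same range. WT C16 with replicate 2 came next at 8.38 CPM, and WT RE, WT DMSO and AE9a C16 followed in that order at 1.55, 0.726 and 0.383 CPM and overlapped each other.

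Arhgef37 lies on chromosome 18 from 61624728 to 61669994 on the minus strand, with 15 exon blocks of 11306 bases. Its levels in AE9a cells were 1.99, 1.54 and 2.39 CPM under DMSO, 2.098, 2.60 and 5.13 CPM under C16 and 1.26, 0.682 and 0.316 CPM under RE. Its levels in WT cells were 9.98, 10.3 and 7.50 CPM under DMSO, 0.713, 2 and 0.422 CPM under C16 and 2.52, 4.42 and 2.38 CPM under RE. Here WT DMSO was the highest group, and replicate 2 was the highest WT library under each treatment. The AE9a C16 and DMSO libraries overlapped, and the highest C16 value came from replicate 3. By group means WT DMSO was 8.86 times WT C16 (15.4 times without replicate 2), while AE9a C16 was 1.66 times AE9a DMSO with replicate 3 and stood at 2.35 ± 0.358 CPM (n = 2) against 1.98 ± 0.425 CPM without it. After WT DMSO the order of the means was AE9a C16, WT RE, AE9a DMSO, WT C16 and AE9a RE, of which each neighbouring pair overlapped.

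Snhg11 lies on chromosome 2 from 158217633 to 158228394 on the plus strand, with 5 exon blocks of 6118 bases. Its levels in AE9a cells were 1.79, 2.13 and 2.04 CPM under DMSO, 1.449, 1.499 and 1.488 CPM under C16 and 1.21, 1.28 and 1.16 CPM under RE. Its levels in WT cells were 5.48, 11.2 and 6.39 CPM under DMSO, 0.611, 1.32 and 0.316 CPM under C16 and 3.62, 11.4 and 4.77 CPM under RE. All C16 libraries of both genotypes lay under all DMSO libraries of the same genotype, and WT replicate 2 was the highest WT library under each treatment. WT DMSO was 10.3 times WT C16 by group means, or 12.8 times without replicate 2, and AE9a DMSO was 1.34 times AE9a C16. The direction was thus the same in both genotypes and the size was not, so the name of opposed responses, under which Snhg11 was picked, does not describe it. WT DMSO and WT RE, the highest groups at 7.71 ± 3.10 and 6.59 ± 4.201 CPM, overlapped, whereas AE9a DMSO, AE9a C16 and AE9a RE followed without overlap among themselves and WT C16 was the lowest and overlapped AE9a RE.

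**Figure D1:**
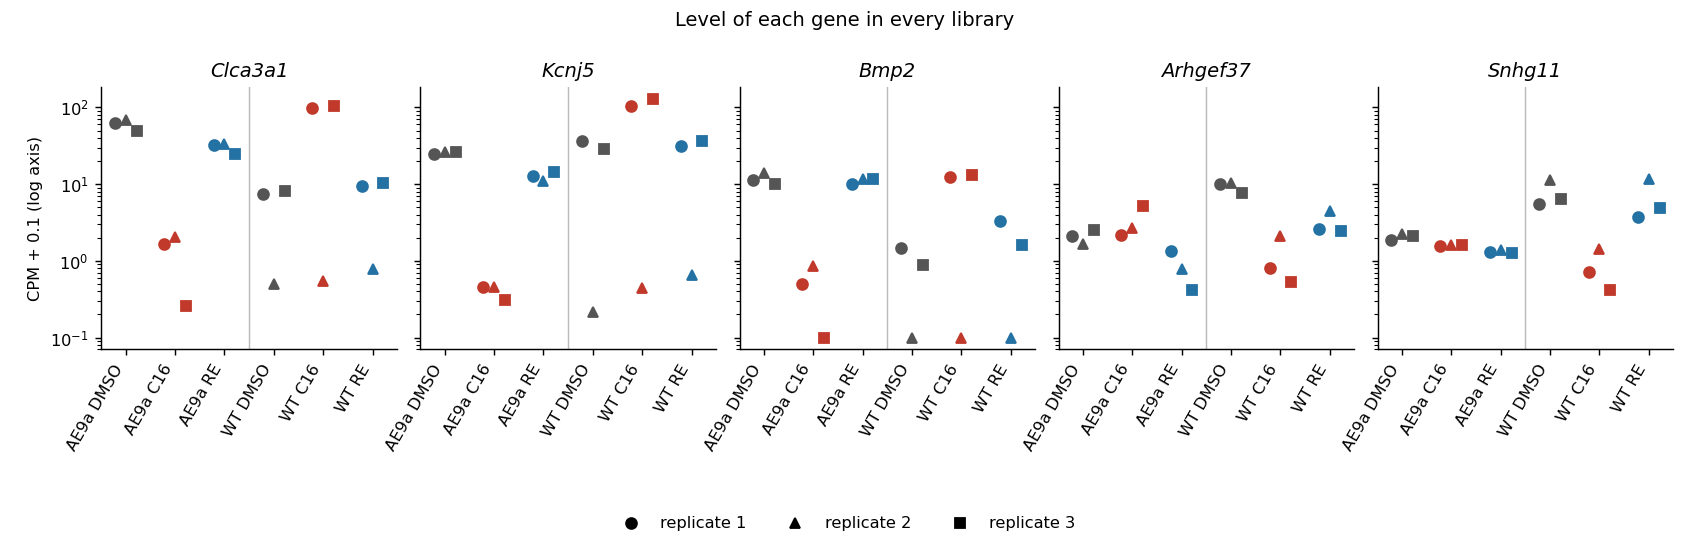
Level of each gene in every library as CPM + 0.1 on a log axis, by group; colours mark DMSO (grey), C16 (red) and RE (blue), and symbols mark the replicate number. Within AE9a cells Clca3a1, Kcnj5 and Bmp2 are lowest under C16, and within WT cells they are highest in C16 replicates 1 and 3 and low in replicate 2 under each treatment. Arhgef37 and Snhg11 are lowest under C16 within WT cells.

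Per kilobase of exon, which allows levels of different genes to be set side by side, Kcnj5 in WT C16 cells without replicate 2 was the highest value at 23.7 CPM per kilobase, followed by Clca3a1 in the same libraries at 19.0. In AE9a DMSO cells the order was Clca3a1 at 11.2, Kcnj5 at 5.21, Bmp2 at 3.28, Snhg11 at 0.325 and Arhgef37 at 0.175 CPM per kilobase. Clca3a1, Kcnj5 and Bmp2 were thus far more abundant than Arhgef37 and Snhg11 in these cells, and the latter pair rests on fewer fragments per library.

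Fitted differences between C16 and DMSO are log2 values ± standard error from edgeR, positive where C16 was higher. In AE9a cells they were −5.52 ± 0.38 for Clca3a1, −6.32 ± 0.18 for Kcnj5 and −4.78 ± 0.44 for Bmp2. In AE9a cells without C16 replicate 3 they were −5.05, −6.13 and −4.27, smaller for each gene but of the same order. In WT cells the same genes had 3.75 ± 1.66, 1.90 ± 1.88 and 3.57 ± 1.84, and without replicate 2 they had 3.78 ± 0.09, 1.90 ± 0.13 and 3.59 ± 0.33. Leaving out WT replicate 2 hardly moved these values and shrank their standard errors by more than 5 times. With all libraries and replicate numbers as a block, the WT values of these genes were 3.54 ± 0.48, 1.85 ± 0.27 and 3.62 ± 0.38. For Arhgef37 the AE9a value was 0.77 ± 0.41, or 0.31 ± 0.34 without C16 replicate 3, and the WT value was −3.06 ± 0.57, or −3.87 ± 0.28 without replicate 2. For Snhg11 the values were −0.39 ± 0.15 in AE9a cells and −3.27 ± 0.67 in WT cells (−3.60 ± 0.31 without replicate 2). With the block the WT values of Arhgef37 and Snhg11 were −3.20 ± 0.34 and −3.36 ± 0.28.

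**Figure D2:**
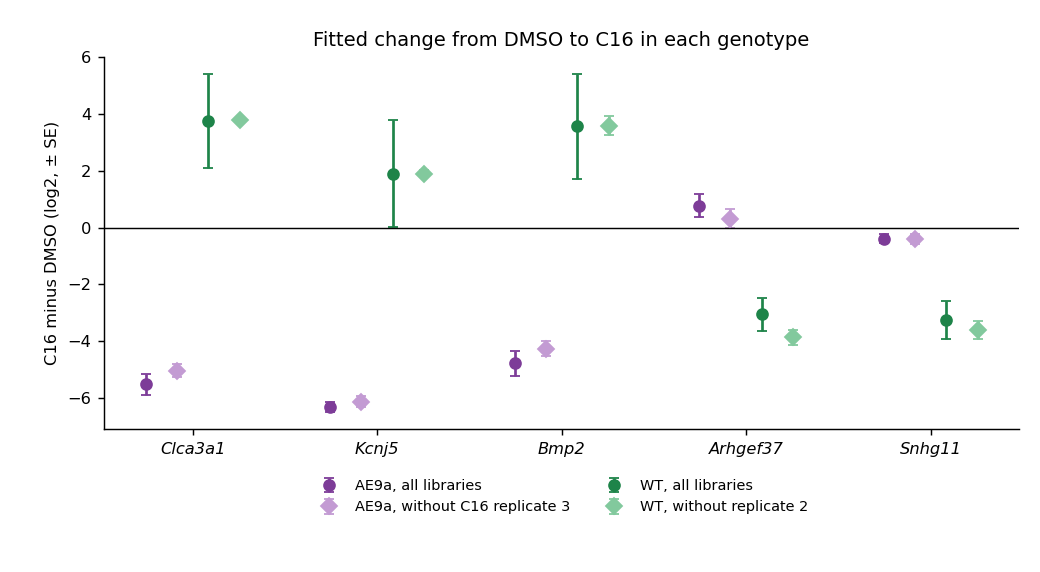
Fitted log2 difference between C16 and DMSO with its standard error for each gene, in AE9a cells (purple; pale without C16 replicate 3) and WT cells (green; pale without replicate 2). Clca3a1, Kcnj5 and Bmp2 lie below 0 in AE9a and above 0 in WT cells, Arhgef37 lies the other way round, and Snhg11 lies below 0 in both. Without C16 replicate 3 the AE9a value of Arhgef37, 0.31 ± 0.34, lies within its standard error of 0.

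The genotype difference of these changes, AE9a minus WT, was −9.23 ± 1.91 for Clca3a1, −8.16 ± 2.38 for Kcnj5, −8.33 ± 1.97 for Bmp2, 3.88 ± 0.75 for Arhgef37 and 2.94 ± 0.68 for Snhg11. By absolute size they ranked 4, 11, 9, 336 and 668 among 15809 tested genes, whose median was 0.06. The genes were chosen by this same quantity, so the ranks describe the choice and nothing is read from them. Without WT replicate 2 the values were −9.24, −8.15, −8.31, 4.70 and 3.26. With the replicate block they were −9.11 ± 0.63, −8.12 ± 0.39, −8.39 ± 0.68, 3.98 ± 0.58 and 3.01 ± 0.31. In AE9a cells the C16 and DMSO libraries did not overlap for 4 of the 5 genes, all lower under C16; over all tested genes 37.4% did not overlap and were lower. In WT cells they did not overlap for Arhgef37 and Snhg11, 2 of the 5, both lower under C16, beside 18.8% of all genes; for the others replicate 2 was the library that overlapped. Nothing is read from these counts, since the same libraries chose the genes.

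By fitted values RE stood nearer to DMSO than C16 did for each of the genes in WT cells, and for Clca3a1, Kcnj5 and Bmp2 in AE9a cells. This did not hold within WT replicate 2 for Clca3a1 and Kcnj5, both under 1 CPM there, nor for Bmp2, at 0 throughout. Changes under RE share the DMSO libraries with those of C16 and so are described without a test. In AE9a cells the RE minus DMSO log2 values were −0.95 ± 0.27 for Clca3a1, −0.98 ± 0.11 for Kcnj5, −0.04 ± 0.30 for Bmp2, −1.35 ± 0.49 for Arhgef37 and −0.67 ± 0.15 for Snhg11. The groups did not overlap for 4 of the 5 genes, all lower under RE, beside 31.3% of all tested genes. In WT cells the values were 0.40 ± 1.55, 0.07 ± 1.84, 1.11 ± 1.79, −1.53 ± 0.54 and −0.18 ± 0.60 in the same order. Arhgef37 was the 1 gene of the 5 whose WT groups did not overlap, lower under RE, beside 8.48% of all tested genes. By fitted values it was also the gene for which RE and C16 stood on opposite sides of DMSO in AE9a cells and on the same side in WT cells.

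The 6 RE libraries took no part in choosing the genes, and AE9a against WT cells under RE was therefore tested. Arhgef37 and Snhg11 were lower in AE9a than in WT cells, and Clca3a1, Kcnj5 and Bmp2 did not pass the test. Arhgef37 differed by −1.98 ± 0.53 (edgeR quasi-likelihood test, adjusted p = 0.034), with 0.753 ± 0.478 CPM against 3.11 ± 1.14 CPM (n = 3 each). Its AE9a RE replicates 1 to 3 held 23, 16 and 6 fragments. Arhgef37 was kept in this fit through the WT group in which it is high, so its call is not counted as support. Snhg11 differed by −2.37 ± 0.50 (edgeR adjusted p = 0.017), with 1.21 ± 0.0606 CPM against 6.59 ± 4.201 CPM. For both genes the 3 AE9a libraries lay under the 3 WT libraries. Clca3a1 stood at 30.0 ± 4.62 CPM in AE9a cells and 6.80 ± 5.32 CPM in WT cells (log2 2.23 ± 0.77, edgeR adjusted p = 0.072). Bmp2 stood at 11.04 ± 1.05 CPM against 1.55 ± 1.58 CPM (log2 2.91 ± 0.93, edgeR adjusted p = 0.059), and it was kept in this fit through the AE9a group in which it is high. The AE9a libraries of these genes lay above all WT libraries, of which replicate 2 stood far below the other pair. Kcnj5 stood at 12.6 ± 1.61 CPM against 22.6 ± 19.3 CPM and overlapped (log2 −0.74 ± 1.06, edgeR adjusted p = 0.62).

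Of the 5 genes, 2 were called in this comparison, both lower, beside 32.6% of all 14599 tested genes called and 14.6% called lower. The libraries did not overlap for 4, 2 higher and 2 lower in AE9a cells, beside 51.9% of all genes, 22.4% higher and 29.5% lower. With 5 genes neither count is read as particular to them. The calls depended on single libraries. Without WT RE replicate 2 all 5 genes were called, at log2 1.69 for Clca3a1 (edgeR adjusted p = 6e-05), −1.33 for Kcnj5 (6.8e-05), 2.34 for Bmp2 (0.00026), −1.62 for Arhgef37 (0.014) and −1.69 for Snhg11 (0.00044), beside 55.2% of all genes. Arhgef37 was no longer called without AE9a RE replicate 2 or 3 or WT RE replicate 1 or 3, with adjusted p = 0.13, 0.086, 0.06 and 0.058, while Snhg11 was no longer called without any 1 of the AE9a RE replicates. Over 14 alternatives the adjusted p ran from 0.0034 to 0.13 for Arhgef37, from 6.6e-05 to 0.071 for Snhg11, from 6e-05 to 0.18 for Clca3a1, from 0.00026 to 0.17 for Bmp2 and from 6.8e-05 to 0.99 for Kcnj5.

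**Figure D3:**
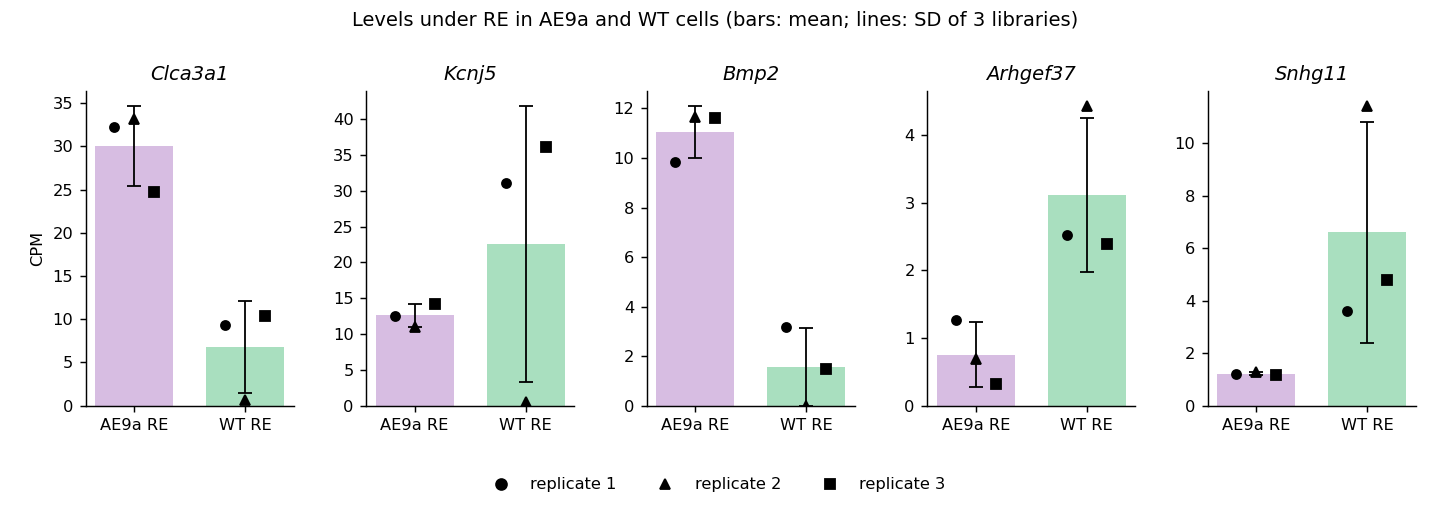
CPM of each gene under RE in AE9a and WT cells on linear axes from 0; bars are means of 3 libraries, lines are SD and symbols are single libraries. AE9a and WT libraries do not overlap for Clca3a1, Bmp2, Arhgef37 and Snhg11, and they overlap for Kcnj5, whose WT replicate 2 stands at 0.561 CPM.

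Markers of several cell types moved with these genes. The summed level of 12 megakaryocyte and platelet markers, among them Pf4, Gp9, Itga2b and Vwf, was 3251, 415.8 and 2893 CPM in WT DMSO replicates 1 to 3, 10378, 316.5 and 11542 CPM under C16 and 4308, 559.0 and 4833 CPM under RE. In AE9a cells it ran from 302.3 to 429.3 CPM under DMSO, from 59.8 to 155.7 CPM under C16 and from 455.0 to 581.6 CPM under RE, and no marker of the list was at 0 in any group. Among WT libraries the sum was thus highest in C16 replicates 1 and 3 and lowest in replicate 2, as were Clca3a1, Kcnj5 and Bmp2. Among AE9a libraries it was lowest under C16, and lowest of all in C16 replicate 3, as were Clca3a1, Kcnj5 and Bmp2. Between the genotypes the order was different: AE9a DMSO cells held 59.6 CPM of Clca3a1 and 11.7 CPM of Bmp2 at marker sums below those of WT DMSO replicates 1 and 3. Arhgef37 and Snhg11 were low in the WT libraries with the highest sums. They were also low in WT C16 replicate 2, which had the lowest WT sum, at 2 and 1.32 CPM against 10.3 and 11.2 CPM in WT DMSO replicate 2. The part of megakaryocyte-lineage RNA in these results was not tested.

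**Figure D4:**
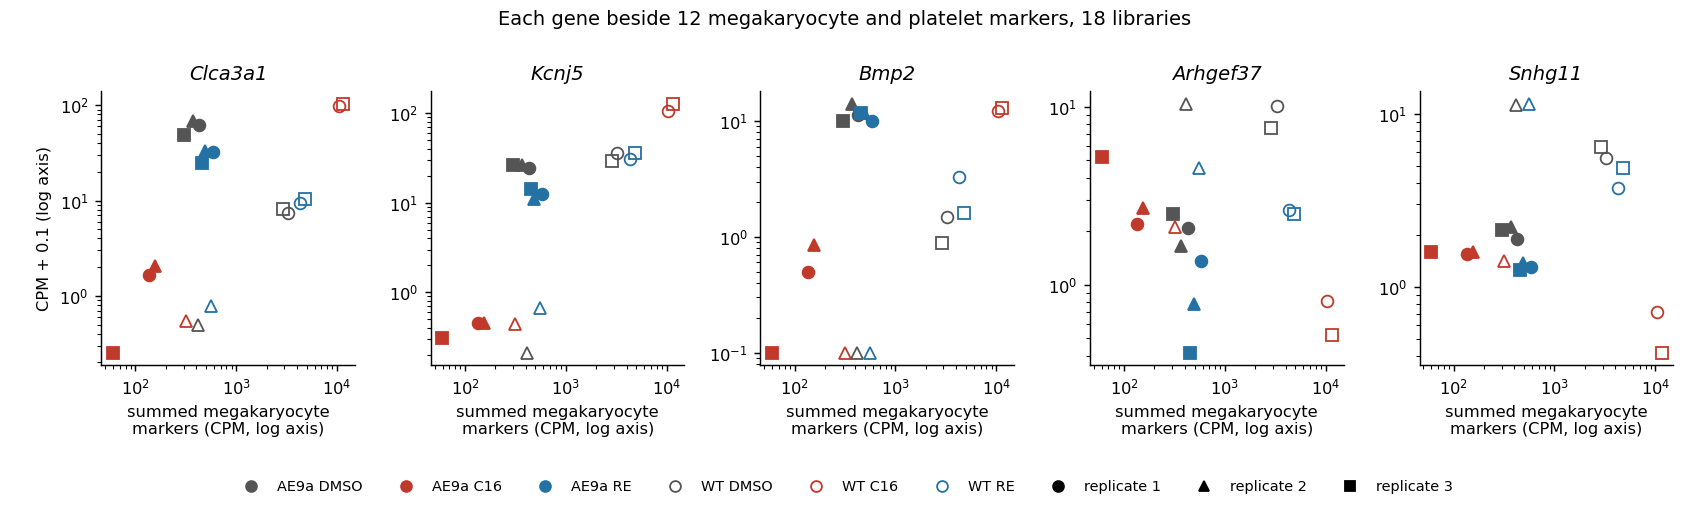
Level of each gene (CPM + 0.1, log axis) against the summed level of 12 megakaryocyte and platelet markers (CPM, log axis) in 18 libraries; filled symbols are AE9a, open symbols WT, colours treatments and shapes replicate numbers. Among WT libraries Clca3a1, Kcnj5 and Bmp2 are lowest in replicate 2, where the sum is 316.5 to 559.0 CPM, and highest in C16 replicates 1 and 3, where it is 10378 and 11542 CPM.

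The summed level of 10 mast cell and basophil markers ran from 10243 to 13770 CPM in AE9a DMSO, from 297.6 to 2228 CPM in AE9a C16 and from 16547 to 18754 CPM in AE9a RE libraries, and from 1532 to 4632 CPM over WT libraries. That of 12 erythroid markers ran from 563.3 to 724.6 CPM in AE9a DMSO and from 2.6 to 34.3 CPM in AE9a C16 libraries, and from 8.1 to 138.3 CPM in WT libraries, where Slc4a1 was at 0. The sum of 12 neutrophil markers was 17770, 12096 and 26133 CPM in WT replicate 2 under DMSO, C16 and RE and from 3514 to 5219 CPM in WT replicates 1 and 3, and in AE9a cells it was higher under C16, at 10118 to 12150 CPM, than under DMSO, at 5822 to 6613 CPM. Within AE9a cells the mast cell and erythroid sums were thus lowest under C16, as were Clca3a1, Kcnj5 and Bmp2. In WT replicates 1 and 3 the erythroid sum was lower under C16 (45.2 and 47.8 CPM) than under DMSO (110.2 and 113.2 CPM), while these genes were higher. Within WT cells the neutrophil sum was highest in replicate 2, where these genes were near 0. Endothelial and stromal markers, of cells in which Clca3a1 and Bmp2 are also known, were lower under C16 in AE9a cells, from 104.4 to 121.0 CPM against 138.6 to 156.6 CPM and from 111.6 to 153.0 CPM against 263.2 to 377.4 CPM under DMSO. In AE9a cells the endothelial sum was lower still under RE, from 90.8 to 104.3 CPM, where Bmp2 overlapped DMSO and Clca3a1 was lower. Among WT libraries it was lowest in replicate 2, at 299.5, 181.4 and 264.2 CPM under DMSO, C16 and RE, where Clca3a1 was under 1 CPM. It ran from 343.4 to 369.8 CPM in WT replicates 1 and 3. The stromal sum was instead highest in WT replicate 2 under each treatment, where Bmp2 was at 0. In bulk RNA, fewer cells of a type and less RNA per cell cannot be told apart, and the part of these cell types in the results was not tested.

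The rest of the BMP pathway was read from lists of ligands, receptors, SMADs with targets, and antagonists. For these genes, which are no members, the genotype difference of the C16 change was tested over all genes, of which 13.1% were called. Of 13 other ligands, Bmp7 alone had enough counts to be tested. Its levels were 33.0, 43.5 and 36 CPM in AE9a DMSO, 4.30, 5.25 and 0.256 CPM in AE9a C16 and 44.5, 50.8 and 49.4 CPM in AE9a RE libraries, and at most 1.95 CPM in WT libraries. Bmp7, like Bmp2, was thus lowest under C16 in AE9a cells (log2 −3.44 ± 0.47, edgeR adjusted p = 0.00016), but WT C16 replicates 1 and 3 held 0.509 and 0.475 CPM. Bmp7 had too few counts in WT cells to be tested there (means of 0.182 and 0.344 CPM under DMSO and C16) and was kept through the AE9a groups in which it is high, so its genotype difference, −4.34 ± 1.33 (edgeR adjusted p = 0.046), rests on few WT fragments. The call was lost in 9 of 12 fits that left out 1 library, with an adjusted p from 0.00025 to 0.17 over 20 alternatives.

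Of 11 receptors and co-receptors, 8 were tested and Bmpr2, the type II receptor for BMP ligands, was called. Bmpr2 fell under C16 in AE9a cells from 145, 171 and 145 CPM to 62.6, 65.2 and 56.4 CPM (log2 −1.29 ± 0.09, edgeR adjusted p = 3e-06). In WT cells it stood at 68.2, 71.6 and 74.6 CPM under DMSO and 54.7, 52.8 and 47.4 CPM under C16 (log2 −0.40 ± 0.09, edgeR adjusted p = 0.062), and the genotype difference was −0.83 ± 0.13 (adjusted p = 0.0011). The median difference over the 8 receptors was 0.19, beside 0.06 over all genes. With the replicate block 3 receptors were called, beside 36.8% of all genes, and without WT replicate 2 there were 5 of 9, beside 49.8%.

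Of 16 SMADs and target genes, 10 were tested, with a median of −0.25. Of these, 4 were called, 3 lower in AE9a than in WT cells and 1 higher. The higher one is Id3, whose call is not counted as support, as given below. Smad1, a signal transducer of BMP receptors, differed by −0.95 ± 0.17 (edgeR adjusted p = 0.0025): it was lower under C16 in all AE9a libraries, at 16.5 to 20.1 CPM against 26.0 to 26.8 CPM, and higher in all WT libraries, at 18.9 to 26.7 CPM against 15.3 to 18.2 CPM. Smad7, an inhibitor of the pathway, differed by −1.58 ± 0.32 (edgeR adjusted p = 0.006), falling in AE9a cells from 15.7, 18.9 and 16.5 CPM to 4.75, 6.12 and 7.75 CPM. In WT cells the C16 change of Smad7 was 0.21 ± 0.26 (edgeR adjusted p = 0.69). Id2 and Id3 encode inhibitors of basic helix-loop-helix factors, and they stood on opposite sides. Id2 differed by −2.07 ± 0.51 (edgeR adjusted p = 0.017), with 296, 416 and 328 CPM under DMSO and 58.6, 66.3 and 28.1 CPM under C16 in AE9a cells. Without AE9a DMSO replicate 2 its adjusted p was 0.05 and the call was lost (range over 20 alternatives 7.3e-06 to 0.05). The fitted C16 change of Id2 was below 0 in WT cells too, at −0.61 ± 0.38 (edgeR adjusted p = 0.38), or −0.67 ± 0.05 without WT replicate 2 (edgeR adjusted p = 3e-05). Id3 stood at 0.409, 0.0735 and 0.407 CPM under DMSO and 4.30, 1.89 and 8.26 CPM under C16 in AE9a cells. It was kept in the fit only through the AE9a C16 group in which it is high, so its fitted difference of 3.45 ± 1.01 is given as a description and its call is not counted as support; the call was also lost in 10 of 12 fits that left out 1 library. Of 15 antagonists and ubiquitin ligases of the pathway 5 were tested and none was called by edgeR, DESeq2 or limma-voom, with 2 at an unadjusted p under 0.05; with the replicate block 2 were called, and without WT replicate 2 there were 2 of 7. Twsg1, an extracellular BMP modulator, and Smurf1, a ubiquitin ligase that targets SMADs, had differences of 0.07 ± 0.16 and −0.10 ± 0.24.

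Over the change under C16 in AE9a cells alone, in which 66.3% of all genes were called, 2 of 8 receptors rose and 2 fell, 3 of 9 SMADs and targets rose and 5 fell, and 1 of 3 antagonists rose and 2 fell. No receptor was called higher by DESeq2, in 1 fit of all libraries, without a filter, or without C16 replicate 2 or 3 or DMSO replicate 1 or 2, and 1 was without DMSO replicate 3. In AE9a against WT cells under RE, 6 of 9 SMADs and targets were called, all higher in AE9a cells, beside 32.6% of all genes called, with a median of 0.99 beside −0.02 over all genes. The fitted values of Bmp7 (log2 5.39) and Bmp2 were also higher there. Both genes were kept in that fit through the AE9a group in which they are high, so these values are a description and not counted as support. Of 8 receptors, 1 was called higher and 2 lower. The receptors called lower numbered 0 without AE9a RE replicate 1 or 3, 1 without AE9a RE replicate 2 and 4 without WT RE replicate 2. None of 3 antagonists was called by edgeR or limma-voom and 1 by DESeq2, with 1 at an unadjusted p under 0.05.

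The other CLCA genes could not be tested, since 7 of 7 had too few counts, Clca2 with 21 fragments over all libraries being the most abundant. Among 14 other inward rectifier genes 2 were tested, Kcnj2 and Kcnj10, and none was called by edgeR, DESeq2 or limma-voom, with 1 at an unadjusted p under 0.05; with the replicate block both were called. Kcnj2, a strong inward rectifier, rose under C16 in AE9a cells from 25.5, 21.5 and 25.8 CPM to 44.3, 43.5 and 36.5 CPM (log2 0.81 ± 0.10, edgeR adjusted p = 6e-05), the direction opposite to that of Kcnj5. In WT cells Kcnj2 was highest in replicate 2, at 46.3, 38.1 and 53.0 CPM under DMSO, C16 and RE against 10.1 to 16.3 CPM in replicates 1 and 3, again opposite to Kcnj5. Its genotype difference was 1.04 ± 0.82 (edgeR adjusted p = 0.39), and without WT replicate 2 in the fit it was 1.03 ± 0.21 (adjusted p = 0.0012); over 20 alternatives the adjusted p ran from 0.00037 to 0.88. Kcnj10 had too few counts in WT cells to be tested there. At 1.64 to 2.28 CPM in AE9a DMSO and 0.150 to 0.276 CPM in AE9a C16 libraries, it had a difference of −1.97 ± 0.70 (edgeR adjusted p = 0.076), which was −2.54 without WT replicate 2 (adjusted p = 0.023; range over 20 alternatives 0.023 to 0.18).

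Among 20 other host genes of small nucleolar RNAs, 17 were tested in AE9a cells, where 15 rose under C16 and 1 fell, with a median of 0.55 beside 0.00 over all genes and 66.3% of all genes called, 33.1% higher; Snhg11 stood lower there. The 1 that fell was not called without C16 replicate 3 or without DMSO replicate 1. Snhg1 rose from 48.3, 46.4 and 46.0 CPM to 77.8, 73.1 and 83.3 CPM (log2 0.77 ± 0.05, edgeR adjusted p = 3.4e-06) and Gas5 from 154, 163 and 141 CPM to 207, 219 and 204 CPM (log2 0.49 ± 0.06, adjusted p = 5.3e-05). In WT cells none of 18 was called under C16 by edgeR or limma-voom and 2 by DESeq2, with 5 at an unadjusted p under 0.05 and a median of 0.43, beside 3.10% of all genes called; with the replicate block 2 were called. Snhg1 stood at 42.0, 36.5 and 45.3 CPM under DMSO and 53.2, 76.3 and 51 CPM under C16 in WT cells, where Snhg11 went from 5.48, 11.2 and 6.39 CPM to 0.611, 1.32 and 0.316 CPM. In the genotype difference none of 18 was called by edgeR or limma-voom and 1 by DESeq2, with 5 at an unadjusted p under 0.05; without WT replicate 2, 14 were called, 13 of them higher in AE9a cells, beside 49.8% of all genes, and with the replicate block 4, beside 36.8%.

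**Figure D5:**
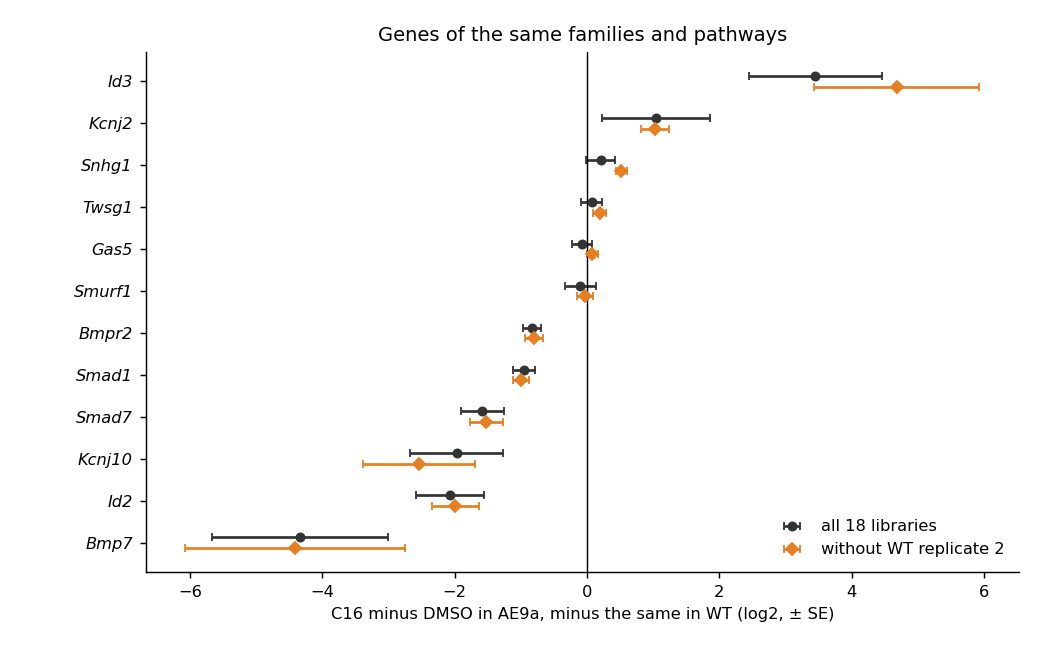
Genotype difference of the C16 change (AE9a minus WT, log2 with its standard error) for 12 genes of the same families and pathways, with all 18 libraries (black) and without WT replicate 2 (orange). Bmp7 lies below −4 and Id3 above 3, while Gas5, Smurf1 and Twsg1 lie near 0.

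The nearest tested gene on each side of each member was read for the same genotype difference. Beside Clca3a1, Sh3glb1 ends 9251 bases away and had a genotype difference of −0.92 ± 0.31 (edgeR adjusted p = 0.066), or −1.08 ± 0.09 without WT replicate 2, against −9.23 for Clca3a1. Odf2l, on the other side of the CLCA cluster, had 0.11 ± 0.14. Beside Kcnj5, Fli1, an ETS factor of megakaryocytes and blood stem cells 77859 bases away, had −0.59 ± 0.22 (edgeR adjusted p = 0.085), or −0.76 ± 0.09 without WT replicate 2. Fli1 stood at 184, 103 and 190 CPM in WT C16 and 134, 116 and 133 CPM in WT DMSO libraries, and at 96.9 to 103 CPM against 120 to 131 CPM in AE9a cells, a pattern in the direction of Kcnj5 but far smaller. Arhgap32, on the other side of Kcnj5, had 0.55 ± 0.23 (adjusted p = 0.12). The neighbours of Bmp2 were distant and scarcely expressed, Lrrn4 at up to 0.997 CPM and Hao1 at up to 5.18 CPM, with 0.40 ± 0.70 and 1.30 ± 0.77. Csnk1a1 and Ppargc1b beside Arhgef37 had −0.00 ± 0.07 and 0.23 ± 0.33, and Snhg17 and Ralgapb beside Snhg11 had 0.32 ± 0.23 and −0.01 ± 0.07; without WT replicate 2, Ppargc1b had 0.67 ± 0.20 and Snhg17 0.50 ± 0.16. None of these 10 differences passed the threshold by edgeR with all libraries. Without WT replicate 2, Sh3glb1, Fli1, Ppargc1b and Snhg17 passed it (edgeR adjusted p = 1.4e-06, 1.8e-05, 0.012 and 0.022), beside 49.8% of all genes.

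The genes most alike in pattern were ranked by the root mean square distance between centred log2 CPM profiles over 18 libraries. Clca3a1 and Bmp2 lay 0.65 apart, Clca3a1 and Kcnj5 1.35, Kcnj5 and Bmp2 1.72, and Arhgef37 and Snhg11 0.80, whereas pairs across these sets lay 3.56 to 3.82 apart. The median distance of all genes was 2.81 from Clca3a1 and 2.77 from Bmp2. A flat profile would lie 2.77 from Clca3a1 and 2.73 from Bmp2, so these medians say little on closeness. Clca3a1 and Bmp2 both had Lhfpl6 and Cap2 among their 4 nearest genes, at 0.95 and 0.92 from Clca3a1 and 0.56 and 0.86 from Bmp2. Cap2, which encodes an actin-regulating protein, stood at 14.5, 14.1 and 16.1 CPM in AE9a DMSO, 0.649, 0.868 and 0.0513 CPM in AE9a C16, 1.96, 0.562 and 1.64 CPM in WT DMSO and 9.98, 0.146 and 9.65 CPM in WT C16 libraries. Lhfpl6 stood at 18.2, 25.6 and 17.4 CPM, 2.05, 2.53 and 0.154 CPM, 1.85, 0.112 and 2.01 CPM, and 18.7, 0.244 and 23.4 CPM in the same order. The other near genes were Ankrd35 for Clca3a1 at 0.99 and Cd59a, of a complement inhibitor, for Bmp2 at 1.04.

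Kcnj5 had no neighbour as close: Cdc42ep5, which encodes an effector of the GTPase CDC42, and Slc14a1, of a urea transporter, lay 1.14 away, the serotonin transporter gene Slc6a4 1.20 and Arpp21 1.24, with a median over all genes of 3.08. For Arhgef37 the nearest were Tns4 at 0.60, Myl10 at 0.66, Hnmt, of a histamine-degrading enzyme, at 0.68 and Gm31657 at 0.73, with a median of 1.34. For Snhg11 they were Scel at 0.61, Ano7 at 0.62, and F7, of coagulation factor VII, and Hal, of histidine ammonia-lyase, at 0.65 each, with a median of 1.30. Scel stood at 16.5, 12.5 and 10.2 CPM in WT DMSO and 1.02, 2.68 and 0.844 CPM in WT C16 libraries, and at 6.49, 5.62 and 7.33 CPM against 4.85, 4.46 and 4.98 CPM in AE9a cells, lower under C16 in both genotypes as Snhg11 was. These distances rest on 18 libraries that share genotype, treatment and the odd WT replicate 2, and they are given as a description. The C16 and DMSO libraries among them also chose the members, so distances between members follow in part from that choice.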

How the data were processed

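RNA from 18 libraries of cKit-selected marrow was measured, 3 in each group. The unit of all values is the deposited count of fragments per gene, made by the authors and given as a table for each genotype. The processing notes of the submitters name HISAT2 2.1.0 and GRCm39, fastp 0.23.2, FastQC 0.11.9 and featureCounts 2.0.3, with no order; per the file headers, featureCounts 1.6.2 counted read pairs over exons from primary alignments without strand. Which version made the counts is not known, and without strand a gene and its antisense partner cannot be told apart.

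The members and all lists were chosen with earlier results of these data known. Genes kept by filterByExpr were scaled by TMM and tested with edgeR 4.0.16 quasi-likelihood F tests (two-sided, Benjamini-Hochberg over all tested genes, threshold 0.05; R 4.3.3), on the 6 RE libraries, the 9 libraries of a genotype or all 18. The script was tested on simulated data. No 2 libraries were identical. Besides the members, up to 4 called genes of each related list (at least 1 CPM in a group, largest difference first; otherwise the 2 most abundant), the nearest tested gene on each side, and the 4 genes most alike in profile are named; Kit was added after its values were seen.

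Alternatives were RLE and upper-quartile scaling, no filter, DESeq2 1.42.0, limma-voom (limma 3.58.1), replicate numbers as a block, 1 fit of all libraries, and leaving out libraries. Same-number libraries deviated together in WT cells (correlation 0.74, 0.83 and 0.74 for DMSO and C16, 0.76, 0.90 and 0.78 for DMSO and RE) and in AE9a cells for DMSO and RE (0.58, 0.39 and 0.48), which counts as pairing here, although a replicate 2 that stands apart can give such values in WT cells. AE9a DMSO and C16 (0.05, 0.39 and 0.25) and the genotypes under RE (−0.06, 0.10 and 0.14) did not show it. A list of genes related to Arhgef37 is not reported here.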

Additional observations from a re-analysis of the deposited data

Results flagged for a closer look

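Related genes whose change under C16 differed between AE9a and WT cells, by the edgeR test of the genotype difference (AE9a minus WT, log2), were the following, and the cause was not tested for any of them. In the BMP pathway the differences were −4.34 for Bmp7, −0.83 for Bmpr2, −0.95 for Smad1, −1.58 for Smad7, −2.07 for Id2 and 3.45 for Id3. Bmp7 and Id3 had too few counts in WT cells to be tested there and were kept through AE9a groups in which they are high. Their calls are therefore not counted as support, and they were lost in 9 and 10 of 12 fits that left out 1 library. Bmpr2, Smad1 and Smad7 kept their call in all 20 alternatives, with highest adjusted p = 0.0045, 0.0085 and 0.021.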

How the results depend on the processing

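With 3 libraries a group and WT replicate 2 apart, counts of calls moved most with the libraries used; the cause of each change below was not tested. AE9a against WT under RE gave 4753 called genes, 3050 with the replicate block, 8362 without WT replicate 2 and 2363 to 8362 without 1 library. In this comparison the block joined AE9a and WT libraries of the same replicate number, which did not deviate together (correlation −0.06, 0.10 and 0.14). C16 in AE9a cells gave 9745 genes and 8876 to 9722 without 1 library. C16 in WT cells gave 467 genes, 2999 in 1 fit of all 18 libraries, 1857 by DESeq2, 206 without a filter, 3646 with the replicate block, 6341 without WT replicate 2 and 0 to 1329 without 1 library. The genotype difference gave 2065 genes, 5813 with the replicate block, 8038 without WT replicate 2, 7963 also without the third AE9a C16 library and 1084 to 6394 without 1 library. Of the 5 members 2 were called under RE, 4 by DESeq2 and by limma-voom, 1 (Snhg11, adjusted p = 0.034; Arhgef37, 0.057) with the replicate block, 5 without WT replicate 2 and 0 to 5 without 1 library.

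Values near 0 changed sign. Kcnj5 in AE9a against WT under RE was 0.44 by limma-voom. Without 1 library, RE minus DMSO ran from −0.15 to 0.12 for Bmp2 in AE9a cells (above 0 at 0.12 and 0.04), and in WT cells from −0.15 to 0.92 for Clca3a1 (below 0 at −0.15 and −0.04), from −0.51 to 0.66 for Kcnj5 (below 0 at −0.51, −0.22 and −0.44) and from −0.89 to 0.21 for Snhg11 (above 0 at 0.21, 0.13 and 0.03). The genotype difference then ran from −0.16 to 0.05 for Gas5, from −0.20 to 0.07 for Smurf1 (also 0.00) and from −0.01 to 0.19 for Twsg1, and for Gas5 it was 0.08 without WT replicate 2 and 0.10 also without the third AE9a C16 library. Beside the counts above and those given with the related genes, the replicate block changed the call of Arhgef37 alone among the members. The C16 changes of the 5 members kept their sign in every alternative. Clca3a1, Kcnj5 and Bmp2 in AE9a C16 cells rest on 83, 20 and 27 fragments over 3 libraries, which limits the precision of their differences.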
